A study of Homo sapiens with 64 samples.

Results

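The human ribosomal DNA scaffold gl000220 and a short window on chromosome 21 were examined in lists of ChIP-seq peaks for the proteins γ-tubulin, PCNA, Mcm5 and FoxM1. The members were all peaks on the scaffold plus all peaks of chromosome 21 between positions 9820000 and 9830000 of the hg19 build. They were 162 of the 2442 peaks in 24 lists, or 6.63%, of which 146 lay on the scaffold and 16 in the window. Members were present in 16 lists and absent from 8. Both places were chosen by the presence of peaks in earlier results of the same lists, which had shown γ-tubulin there in both cell lines and PCNA in 1 of them, so these contrasts are described below and none was tested.

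Peaks are stretches of DNA where immunoprecipitated chromatin gave more reads than the background. They were mapped in U2OS, an established human osteosarcoma line, and in shTUBG U2OS, which stably carries a short hairpin RNA against the γ-tubulin genes and has less γ-tubulin. Cells of each line were non-synchronous or were harvested 3, 7 or 9 h after a double thymidine block, a treatment that holds cells at the start of S phase. γ-Tubulin and PCNA were precipitated in both lines, Mcm5 and FoxM1 in U2OS cells without the hairpin alone. The 64 samples form 32 groups of 2, and both immunoprecipitates of a group share 1 deposited list, so the values below carry no replicate error. The level of γ-tubulin was not measured by these files, and the whole shTUBG U2OS lists held 236 γ-tubulin peaks against 453 in U2OS. Read depth is unknown, and lists ranged from 17 to 244 peaks. Intervals given below are 95% Clopper-Pearson intervals that cover counting error only, and neighbouring peaks of a list are not independent. For a list with 0 members, the share said to be allowed is instead 3 divided by the peaks of the list. That share is lower than the upper end of the Clopper-Pearson interval.

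The 45S ribosomal DNA encodes the precursor of the ribosomal RNAs. It lies in tandem repeats on the short arms of the acrocentric chromosomes, of which chromosome 21 is one, and each repeat holds a transcribed part and a long intergenic spacer. RNA polymerase I transcribes it in the nucleolus, and replication origins and a replication fork barrier are known features of the spacer. γ-Tubulin nucleates microtubules and is also found in the nucleus. PCNA is the sliding clamp that tethers DNA polymerases at the replication fork. Mcm5 is a subunit of the helicase that marks licensed origins, and FoxM1 is a transcription factor of cell cycle genes. An assembly holds very few of the many repeats in the genome, so reads from all of them collect on a short sequence. In the RefSeq annotation of GRCh38, the unplaced sequence with this ribosomal DNA lists RNA45SN5, RNA18SN5, RNA5-8SN5 and RNA28SN5 in that order. They are followed by the pseudogenes LOC100286895, RNA18SP3, RNA5-8SP8 and LOC124905315. Thus a complete transcription unit is followed by pseudogene copies of some of its parts. The peaks were not assigned to these genes, because no annotation of hg19, the build of the peaks, was at hand.

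γ-Tubulin gave the most members in shTUBG U2OS. Its 4 shTUBG U2OS lists held 71 member peaks, and its 4 U2OS lists held 27, a ratio of 2.63. The members were 30.1% of all γ-tubulin peaks in shTUBG U2OS and 5.96% of those in U2OS. Elsewhere in the genome the number ran the other way, with 165 γ-tubulin peaks outside the members in shTUBG U2OS against 426 in U2OS, a difference of -61.3%. Without mitochondrial peaks as well, the numbers were 115 and 410, a difference of -72.0%. The excess of member peaks in shTUBG U2OS therefore stood against a shorter list.

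The excess differed between the times. In non-synchronous U2OS cells, 12 of 102 γ-tubulin peaks were members (11.8%, interval 6.23 to 19.6), and in shTUBG U2OS cells 19 of 94 (20.2%, interval 12.6 to 29.8). At 3 h the counts were 10 of 123 in U2OS (8.13%, interval 3.97 to 14.4) and 9 of 33 in shTUBG U2OS (27.3%, interval 13.3 to 45.5). The count at 3 h was thus no higher in shTUBG U2OS, although the share of the list was. At 7 h there were 0 of 75 in U2OS, which allows a share of up to 4%, and 18 of 42 in shTUBG U2OS (42.9%, interval 27.7 to 59.0). At 9 h there were 5 of 153 in U2OS (3.27%, interval 1.07 to 7.46) and 25 of 67 in shTUBG U2OS (37.3%, interval 25.8 to 49.99). At 7 and 9 h the numbers of the lines lay furthest apart.

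A count of peaks depends on whether an enriched stretch is called as 1 peak or as several, so the covered length was also taken. In non-synchronous cells, γ-tubulin members covered 5255 bp in U2OS and 17147 bp in shTUBG U2OS. At 3 h the lengths were 3988 and 2497 bp, and at 9 h 2169 and 9716 bp. At 7 h they were 0 and 7810 bp. Covered length was therefore larger in shTUBG U2OS at 3 of the 4 times and smaller at 3 h, and summed over the times it was 11412 bp in U2OS and 37170 bp in shTUBG U2OS, a ratio of 3.26. When peaks within 1000 bp were joined, the numbers of γ-tubulin stretches were 5 in both lines in non-synchronous cells, 8 and 6 at 3 h, 0 and 6 at 7 h and 3 and 5 at 9 h. After this joining, the lines differed in non-synchronous cells in the length of the stretches and not in their number. The stretches were not all at the same places, however. For example, shTUBG U2OS had γ-tubulin at 104328 to 104671 and 150272 to 150880, where no U2OS list had it. Single γ-tubulin peaks were 200 to 1132 bp wide in U2OS, with a median of 326 bp, and 200 to 2581 bp wide in shTUBG U2OS, with a median of 390 bp.

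**Figure D1:**
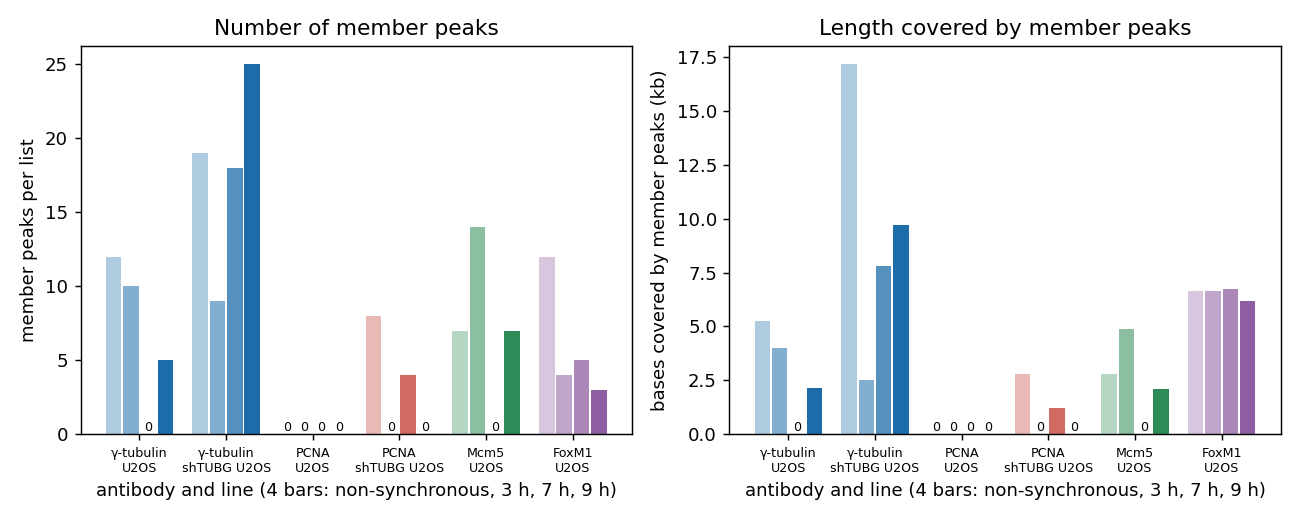
Member peaks per list (left) and bases covered by them in kb (right) for each antibody and line, with 4 bars for non-synchronous cells and 3, 7 and 9 h after release and a 0 where a list held none; each bar is 1 list, without error. γ-Tubulin in shTUBG U2OS reached 25 peaks and 17147 bp, PCNA in U2OS stayed at 0, and FoxM1 covered 6163 to 6739 bp at every time.

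The number of mitochondrial peaks in the γ-tubulin lists also differed between the lines. There were 5, 3, 5 and 3 in U2OS (non-synchronous, 3, 7 and 9 h) and 8, 8, 16 and 18 in shTUBG U2OS. In the PCNA lists they ran the other way, with 22, 17, 17 and 24 in U2OS and 17, 7, 8 and 1 in shTUBG U2OS, while PCNA members were 0 and 12. Mitochondrial DNA, like ribosomal DNA, is present in many copies per cell. The part of these differences in the γ-tubulin and PCNA results was not tested.

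PCNA was called at the ribosomal DNA in shTUBG U2OS and in no U2OS list. In U2OS there was no member among 118 peaks of non-synchronous cells or among 104, 17 and 130 peaks at 3, 7 and 9 h, and these zeros allow shares of up to 2.54, 2.88, 17.6 and 2.31%. All 17 peaks of the list at 7 h were mitochondrial, so that list says nothing of nuclear DNA. In shTUBG U2OS, 8 of 87 PCNA peaks were members in non-synchronous cells (9.20%, interval 4.05 to 17.3) and 4 of 25 at 7 h (16%, interval 4.54 to 36.1). The lists at 3 h and 9 h held 0 of 51 and 0 of 155, which allow up to 5.88 and 1.94%. The PCNA members therefore came from 2 of the 8 PCNA lists, 1 of them short, and γ-tubulin was called in shTUBG U2OS at 3 and 9 h without PCNA. At the times when both lines could be set side by side on nuclear peaks, non-synchronous cells alone had PCNA members in shTUBG U2OS.

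The PCNA peaks lay at positions where γ-tubulin was called too. In non-synchronous shTUBG U2OS cells they lay on the scaffold at 109960 to 110359, 110492 to 110693, 154022 to 154364, 154438 to 154835, 158656 to 159215, 159861 to 160104 and 161032 to 161274, and on chromosome 21 at 9827046 to 9827472. At 7 h they lay at 159773 to 160063 and 161078 to 161572 on the scaffold and at 9826862 to 9827113 and 9827228 to 9827427 on chromosome 21. Every base of the 2817 bp covered by PCNA in non-synchronous shTUBG U2OS cells was covered by γ-tubulin too, and at 7 h 1111 of 1238 bp (89.7%). All 12 PCNA peaks shared at least 1 bp with a γ-tubulin peak of the same time and line. By the study's criterion, an overlap of at least 25% of both peaks, 5 of the 12 overlapped (41.7%), against 10.4% of all PCNA peaks of shTUBG U2OS. Both proteins were known to be called at these places in shTUBG U2OS when the places were chosen. The overlap is therefore description, and the higher share is no finding. PCNA members were at most 560 bp wide, and several lay inside much wider γ-tubulin peaks. Taken over all times, 12 of the 12 PCNA peaks met the criterion with a γ-tubulin peak of shTUBG U2OS, 11 with a γ-tubulin peak of U2OS and 10 with an Mcm5 peak of U2OS. Pooling the times makes an overlap easier, and the share of all PCNA peaks that meet it was not computed.

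Seen from γ-tubulin, few peaks met PCNA. Of the 27 γ-tubulin members of U2OS, 0 met PCNA of that time by 25% of both peaks or by 1 bp. No U2OS list held a PCNA member, as was known when the places were chosen, so this 0 was fixed in advance. Of the 71 members of shTUBG U2OS, 5 overlapped by 25% of both (7.04%, interval 2.33 to 15.7) and 8 by 1 bp (11.3%). They comprised 2 of 19 in non-synchronous cells and 3 of 18 at 7 h by the 25% criterion. Over the whole genome, the same criterion was met by 52.3% of the γ-tubulin peaks of U2OS (237 of 453) and by 13.6% of those of shTUBG U2OS (32 of 236). The members lay below both shares, in U2OS through the choice of the places. In shTUBG U2OS the interval of the members held the share of all peaks.

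**Figure D2:**
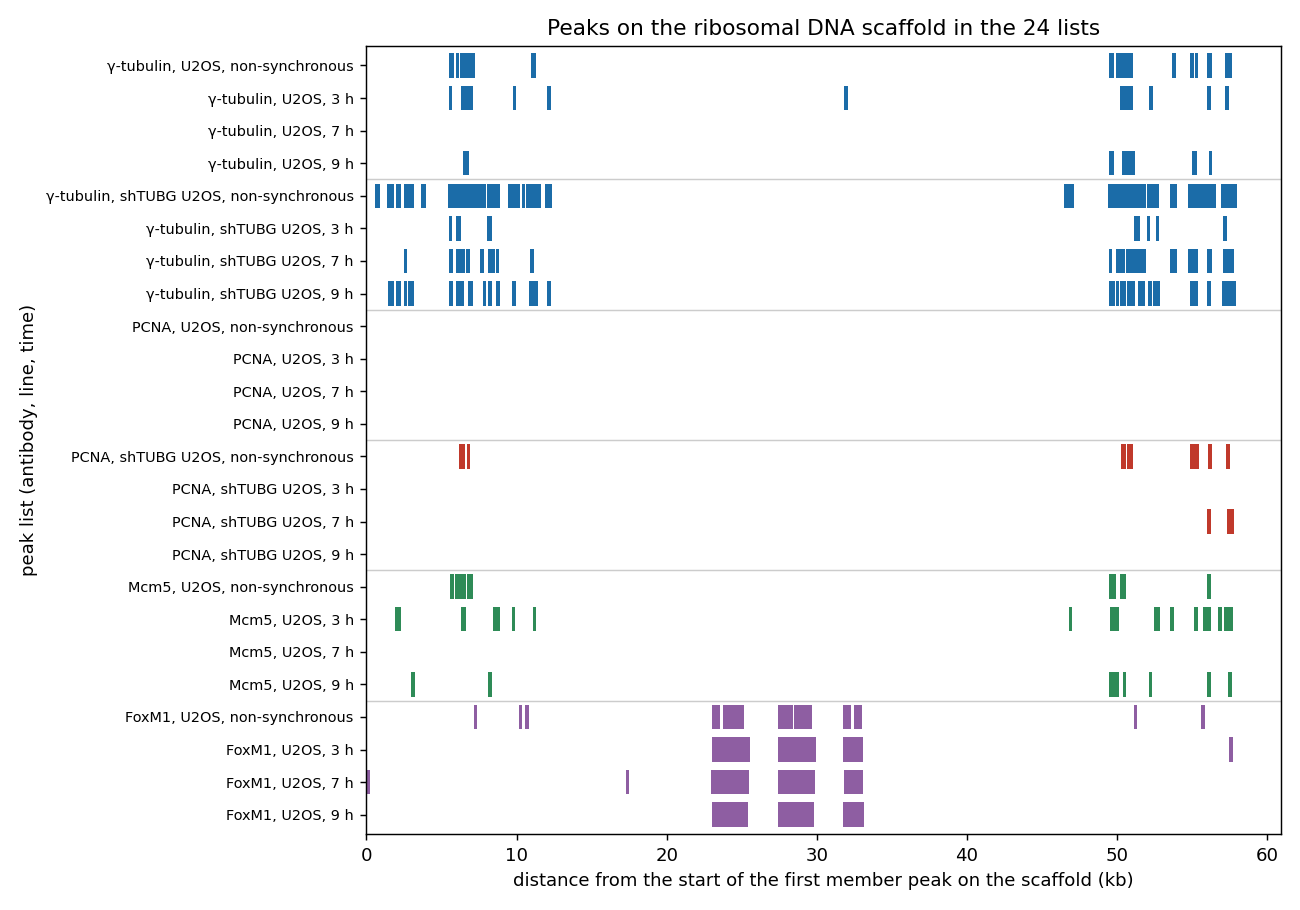
Peaks on the ribosomal DNA scaffold, with 1 row per list and bars drawn to scale as distance in kb from the first member peak; blue is γ-tubulin, red PCNA, green Mcm5 and purple FoxM1. Peaks of γ-tubulin, PCNA and Mcm5 fall into a left and a right zone, save 1 γ-tubulin peak, and the 3 wide FoxM1 blocks lie between the zones and cover part of that stretch.

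Along the scaffold, members fell into zones when peaks within 4 kb were joined. The first zone, 103768 to 116100, held 9 γ-tubulin peaks of U2OS and 35 of shTUBG U2OS. It further held 10 Mcm5 peaks, 4 FoxM1 peaks and 2 PCNA peaks. The second zone, 150272 to 161767, held 15 γ-tubulin peaks of U2OS, 28 of shTUBG U2OS, 16 Mcm5 peaks, 3 FoxM1 peaks and 7 PCNA peaks. Most scaffold peaks of PCNA were thus in the second zone, while γ-tubulin of shTUBG U2OS was spread over both. Between the zones, a further one at 126723 to 136884 held 15 FoxM1 peaks and a single γ-tubulin peak, that of U2OS at 3 h. A lone FoxM1 peak of 7 h lay at 121079 to 121280.

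Part of the pattern recurred between the outer zones. The shift that best superimposed the covered bases of all lists was 43.983 kb, with a correlation of 0.61 between the base-by-base coverage and its shifted copy. The next best shift at least 1 kb away gave 0.26. For the γ-tubulin lists alone the best shift was 43.973 kb in U2OS (correlation 0.82) and 43.97 kb in shTUBG U2OS (correlation 0.50). These values describe bases of 1 sequence, which are not independent points. PCNA gave 44.005 kb with a correlation of 0.29, and Mcm5 gave 49.671 kb (0.41) ahead of 43.967 kb (0.34). The best shift of Mcm5 lay near the end of its scan, where fewer bases are compared. The shift was therefore nearly the same for γ-tubulin in both lines, and Mcm5 had it in the second place.

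Folded on 43.983 kb, the stretch 103768 to 117784 was set against 147751 to 161767. In U2OS, 43.1% of the bases covered by γ-tubulin in either copy were covered in both, summed over the lists, and in shTUBG U2OS 42.8%. In U2OS 6 of 9 γ-tubulin peaks of the first copy had a partner in the second, and in shTUBG U2OS 18 of 35. For Mcm5, 1542 of 7711 bp covered in either copy were covered in both, and the share was 19.7% for PCNA and 11.6% for FoxM1 in these stretches. The closest match of any list was γ-tubulin in non-synchronous shTUBG U2OS cells, at 59.2%, and the lowest of a γ-tubulin list was shTUBG U2OS at 3 h, at 10.5%. Both PCNA peaks of the first copy, at 109960 to 110359 and 110492 to 110693, had a partner in the second. How reads that fit both copies were placed is not given in the sources used here, so the copies are not independent measurements.

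**Figure D3:**
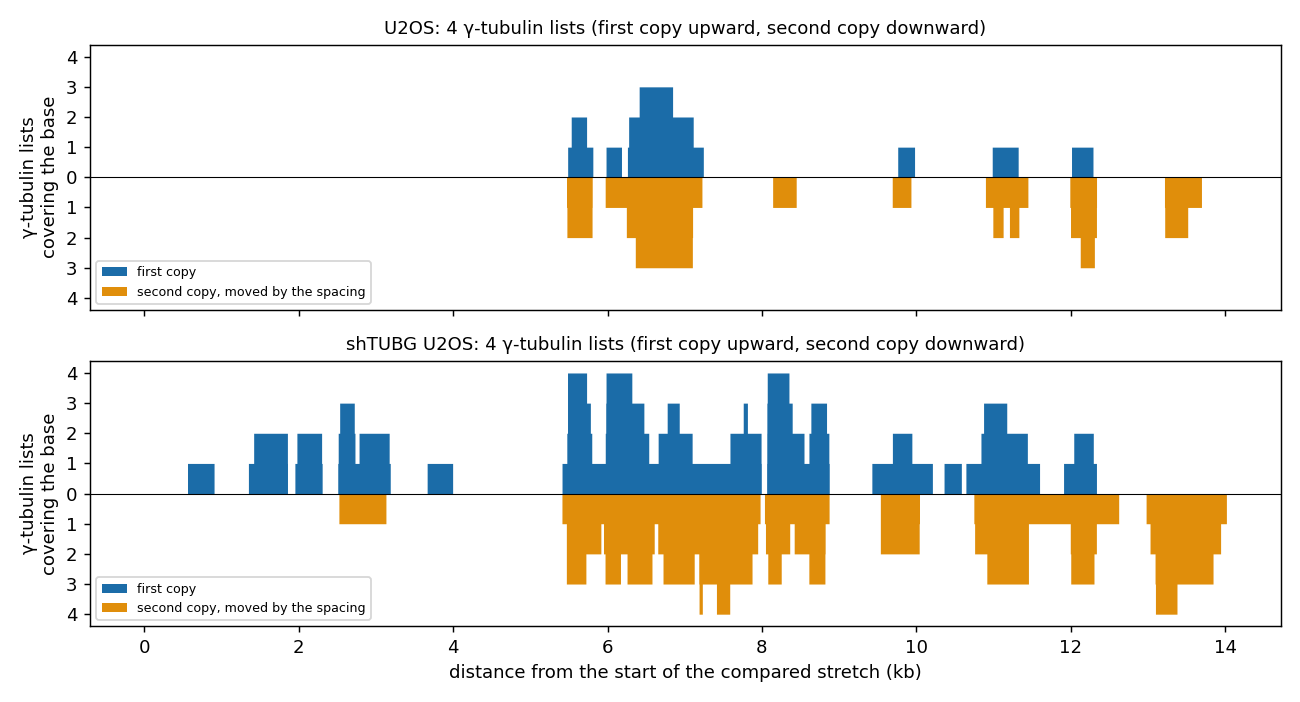
Number of γ-tubulin lists, out of 4 per line, that cover each base along the compared stretch of 14017 bp (in kb), with the first copy drawn upward and the second, moved by 43.983 kb, downward; U2OS is above and shTUBG U2OS below. Several γ-tubulin stretches lie at like distances in both copies, and shTUBG U2OS has peaks on the left, mostly in the first copy, where U2OS has none.

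Some parts of the folded stretch were bare. Within its 14017 bp, the longest run without γ-tubulin in either copy or line was 1416 bp, at 107762 to 109177 in the first copy and 151745 to 153160 in the second, and no other antibody gave a peak there. In both copies it ended where the widest γ-tubulin peaks of non-synchronous shTUBG U2OS cells began. Outside the folded stretch, between the zones, γ-tubulin had the single peak at 135601 to 135861. Within it, another bare stretch of 552 bp lay at 112640 to 113191 and 156623 to 157174 for γ-tubulin.

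Joining peaks of all lists that shared at least 1 bp gave 387 regions in the genome, of which 23 were members. γ-Tubulin was called in both lines in 10 of the 23 member regions (43.5%), against 8.79% of all regions. It was called in shTUBG U2OS and in no U2OS list in 8 (34.8%, against 17.8% of all) and in U2OS and in no shTUBG U2OS list in 1 (4.35%, against 26.9% of all). The exception was the region at 135507 to 136884, which held the single γ-tubulin peak among FoxM1 peaks. PCNA was called in shTUBG U2OS and in no U2OS list in 5 regions (21.7%, against 12.9% of all). γ-Tubulin of U2OS without PCNA of U2OS was found in 11 regions (47.8%, against 13.4%). These contrasts chose the members and are given as description.

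The 5 regions with PCNA were also the ones called in the most lists. The region at 153161 to 155726 was called in 12 lists with 24 peaks. It held γ-tubulin of U2OS in non-synchronous cells and at 3 and 9 h, γ-tubulin of shTUBG U2OS at all 4 times, PCNA of non-synchronous shTUBG U2OS cells, Mcm5 in non-synchronous cells and at 3 and 9 h, and FoxM1 in non-synchronous cells. In non-synchronous cells its widest γ-tubulin peak was 1132 bp in U2OS (153721 to 154852, rank 36 of 102 by score) and 2566 bp in shTUBG U2OS (153161 to 155726, rank 6 of 94). The peak of shTUBG U2OS spanned the whole region.

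Its counterpart in the first copy, at 109179 to 111759, was called in 11 lists with 24 peaks and differed in Mcm5, which had no peak there at 9 h. In non-synchronous cells the widest γ-tubulin peak was 983 bp in U2OS (110026 to 111008, rank 29 of 102) and 2581 bp in shTUBG U2OS (109179 to 111759, rank 3 of 94). The latter was the widest of all member peaks. Within the region, PCNA peaks ranked 52 and 67 of 87.

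The region at 158496 to 160371 was called in 12 lists with 19 peaks. γ-Tubulin was called there in U2OS in non-synchronous cells and at 3 and 9 h, and in shTUBG U2OS in non-synchronous cells and at 7 and 9 h. PCNA of shTUBG U2OS was called in non-synchronous cells and at 7 h, Mcm5 in non-synchronous cells and at 3 and 9 h, and FoxM1 in non-synchronous cells. It contained the 158 bp, at 159874 to 160031, that were covered by the most lists, 11 of 24. At these bases the γ-tubulin peaks of U2OS had scores of 88 in non-synchronous cells, 63 at 3 h and 59 at 9 h. The PCNA peaks had scores of 91 in non-synchronous cells and 40 at 7 h in shTUBG U2OS, ranks 41 of 87 and 22 of 25. All antibodies but FoxM1 thus met on this stretch.

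The region at 160534 to 161767 was called in 11 lists with 12 peaks. It held γ-tubulin of U2OS in non-synchronous cells and at 3 h, γ-tubulin of shTUBG U2OS at all 4 times, PCNA of shTUBG U2OS in non-synchronous cells and at 7 h, Mcm5 at 3 and 9 h and FoxM1 at 3 h. Its PCNA peak at 7 h, 495 bp wide, had rank 8 of 25, the best rank of any PCNA member. No member region was called in this part of the first copy, which ended at 116100.

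On chromosome 21 the members spanned 9825473 to 9827592, and the nearest other peaks on that chromosome lay 125 kb before and 992 kb after them. They formed 2 regions. The region at 9826724 to 9827592 was called in 9 lists. In U2OS, γ-tubulin was called there in non-synchronous cells (9827109 to 9827564, score 139) and at 3 h (9827042 to 9827424, score 56). In shTUBG U2OS it was called at all 4 times, with scores of 170, 58, 87 and 128 in non-synchronous cells and at 3, 7 and 9 h. PCNA of shTUBG U2OS had 1 peak in non-synchronous cells, which had the lowest score of its list, and 2 peaks at 7 h. Mcm5 was called in non-synchronous cells. All 9 lists covered the 73 bp at 9827228 to 9827300.

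The other region, at 9825473 to 9826406, was called in 6 lists. It held γ-tubulin of shTUBG U2OS at all 4 times, Mcm5 at 3 h and FoxM1 in non-synchronous cells, and neither γ-tubulin of U2OS nor PCNA of either line. The neighbouring regions of the window thus differed in whether γ-tubulin was called in U2OS.

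**Figure D4:**
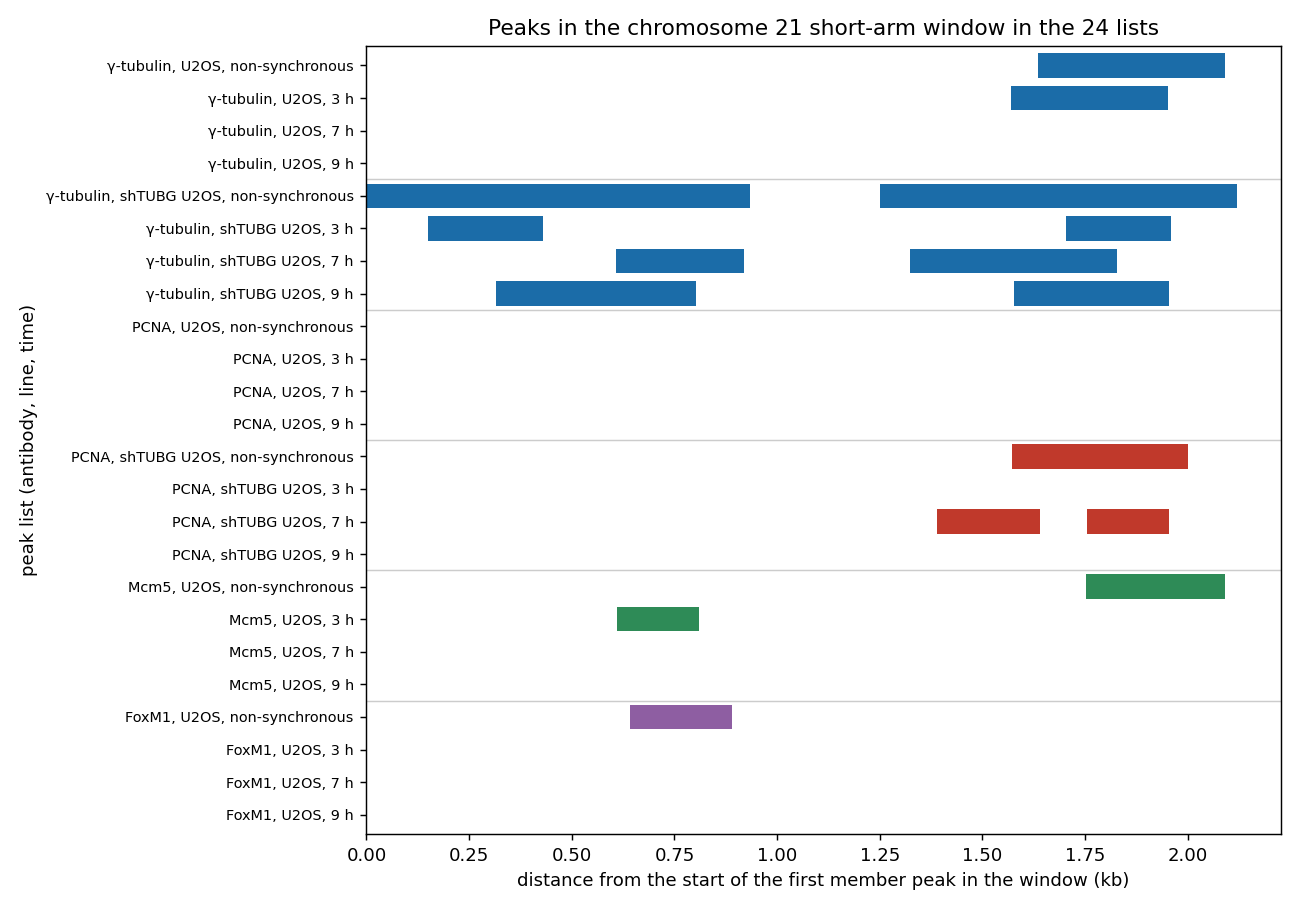
Peaks in the chromosome 21 window, with 1 row per list and bars drawn to scale as distance in kb from the first member peak of the window; colours are blue for γ-tubulin, red for PCNA, green for Mcm5 and purple for FoxM1. The 8 γ-tubulin peaks of shTUBG U2OS form a left and a right stretch at all 4 times, whereas the 2 of U2OS and the 3 PCNA peaks of shTUBG U2OS lie in the right one.

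Besides the chromosome 21 region, 3 scaffold regions were called in 6 lists. The regions at 111829 to 112669 and 155784 to 156622 carried γ-tubulin of shTUBG U2OS and Mcm5 at 3 and 9 h, the second also γ-tubulin of U2OS at 3 h. The region at 114363 to 115363 carried γ-tubulin of both lines, Mcm5 and FoxM1. The other 14 member regions were called in 1 to 5 lists, of which 4 in a single list. By antibody, 4 of the 23 regions held FoxM1 alone, 4 held γ-tubulin alone, and 4 held γ-tubulin, PCNA, Mcm5 and FoxM1, each 17.4%, against 31.3, 16.3 and 19.6% of all regions. None of the 23 held PCNA or Mcm5 without γ-tubulin, against 15.2% of all. The places were chosen with γ-tubulin known there in both lines, so this absence is given as description.

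The bases called most often within shTUBG U2OS showed where γ-tubulin recurred over time. All 4 lists covered 109250 to 109496, 109749 to 110082 and 111837 to 112117 in the first copy, 154937 to 154978, 155162 to 155333 and 160848 to 161126 in the second, and 9827177 to 9827300 on chromosome 21. In U2OS, where the list at 7 h had no member, the other 3 lists met at 110178 to 110610, 154111 to 154849 and 159874 to 160056. On the scaffold, these stretches of U2OS shared no base with those met by all 4 shTUBG U2OS lists. The shTUBG U2OS list at 3 h, of 33 peaks, had no peak on them. Its lists of non-synchronous cells and at 7 and 9 h each covered part of every one. Of the 8 γ-tubulin lists of both lines, 6 met at 110178 to 110238 and at 110541 to 110610.

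γ-Tubulin of U2OS was nested in that of shTUBG U2OS in non-synchronous cells. All 5255 bp covered in U2OS were covered in shTUBG U2OS, where they made up 30.6% of the length. At 9 h 1721 of 2169 bp were shared (79.3%), and at 3 h 804 of 3988 bp (20.2%). As a share of the length in shTUBG U2OS, this was 17.7% at 9 h and 32.2% at 3 h. At 7 h U2OS had no member to share. Over all times, 26 of the 27 peaks of U2OS overlapped a shTUBG U2OS peak by 25% of both, and 40 of the 71 peaks of shTUBG U2OS overlapped a U2OS peak. The shares of all γ-tubulin peaks that do so were not computed.

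Mcm5 had 28 members among 368 peaks in U2OS, or 7.61%. In non-synchronous cells they were 7 of 98, at 3 h 14 of 132 and at 9 h 7 of 109. At 7 h there was none among 29, which allows up to 10.3%. The list at 7 h lacked members for Mcm5 as it did for γ-tubulin of U2OS. By the study's definition, an Mcm5 peak that overlaps PCNA of the same time is an active origin and any other a dormant one. Of the 28, 0 overlapped PCNA of U2OS, against 59% of all Mcm5 peaks, so all 28 were classed as dormant. No U2OS list held a PCNA member, as was known when the places were chosen. The class was therefore fixed in advance and is no finding about these origins. Mcm5 without PCNA in U2OS was found in 14 of the 23 member regions (60.9%, against 17.3% of all regions), where the same limit holds. Mcm5 was not mapped in shTUBG U2OS, so origins could not be classed where PCNA was called.

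Most of the length covered by Mcm5 in non-synchronous U2OS cells was covered by γ-tubulin too. In turn, Mcm5 covered 47.5% of the 5255 bp of γ-tubulin in these cells. There, 2498 of the 2803 bp covered by Mcm5 were covered by γ-tubulin (89.1%), and all 7 Mcm5 peaks overlapped a γ-tubulin peak by 25% of both. At 3 h 1098 of 4896 bp were shared (22.4%) and 4 of 14 peaks overlapped, and at 9 h 715 of 2092 bp (34.2%) and 2 of 7. The overlap was thus lower in the released cells than in non-synchronous cells. In all, 13 of the 28 overlapped at the same time (46.4%), against 78% of all Mcm5 peaks. With any time counted, 19 of the 28 Mcm5 peaks overlapped γ-tubulin of U2OS and 27 overlapped γ-tubulin of shTUBG U2OS. For any time, the shares of all Mcm5 peaks were not computed.

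FoxM1 showed another pattern. It had 24 members among 698 peaks (3.44%), and its lists held 12 of 129 in non-synchronous cells, then 4 of 202, 5 of 123 and 3 of 244 at 3, 7 and 9 h. The covered length hardly followed the count, at 6624, 6647, 6739 and 6163 bp. FoxM1 was thus the antibody whose covered length varied least over the times, and it had members at 7 h, when γ-tubulin, Mcm5 and PCNA of U2OS had none.

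Of the FoxM1 members, 15 fell into 3 blocks between the zones, which made up 91.9% of the length that FoxM1 covered. The blocks were at 126723 to 129326, 131188 to 133747 and 135507 to 136884, with starts 4.465 and 4.319 kb apart. The first covered 1999 bp in non-synchronous cells and 2522, 2547 and 2417 bp at 3, 7 and 9 h. The second covered 2174, 2558, 2422 and 2368 bp, and the last 1074, 1269, 1314 and 1378 bp. Each block was called at every time, as 2 peaks in non-synchronous cells and as 1 after release. FoxM1 was called at all 4 times in 3 of the 23 member regions (13.04%), near the 11.9% of all regions.

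The block peaks were wide for their lists. The widest had rank 5 of 129 by width in non-synchronous cells, rank 7 of 202 at 3 h, rank 2 of 123 at 7 h and rank 8 of 244 at 9 h. By score the best had ranks 19, 32, 11 and 60. They were thus nearer the top of their lists by width than by score. γ-Tubulin of U2OS shared 77 bp with FoxM1 in non-synchronous cells (1.47% of its length), 317 bp at 3 h, of which the peak at 135601 to 135861 was part, and 0 at 9 h. Over all times, 3 of the 24 FoxM1 peaks overlapped γ-tubulin of shTUBG U2OS by 25% of both, and 2 overlapped that of U2OS. The shares of all FoxM1 peaks were not computed.

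The score of a peak was compared within its own list, as a percentile with the highest score at the top. In U2OS the members were mostly low. The median percentile of γ-tubulin members was 32.8 in non-synchronous cells, 21.5 at 3 h and 17.0 at 9 h, and 6 of the 27 scored no lower than their list's median. In shTUBG U2OS it was 78.7, 42.4, 57.1 and 49.3 in non-synchronous cells and at 3, 7 and 9 h, and 40 of the 71 were at or above the median. The best γ-tubulin member had rank 29, 48 and 93 in the U2OS lists with members and rank 3, 3, 2 and 4 in the shTUBG U2OS lists. The scores of γ-tubulin members thus lay higher within the lists of shTUBG U2OS, which are shorter.

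PCNA and Mcm5 members were low in their lists. The median percentile of PCNA was 20.7 in non-synchronous shTUBG U2OS cells and 36.0 at 7 h, with 3 of 12 peaks at or above the median. For Mcm5 it was 18.4 in non-synchronous cells, 25.8 at 3 h and 5.50 at 9 h, with 4 of 28 at or above the median. FoxM1 was higher, at 63.6, 72.8, 88.6 and 75.8 over the times, with 17 of 24 at or above the median.

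**Figure D5:**
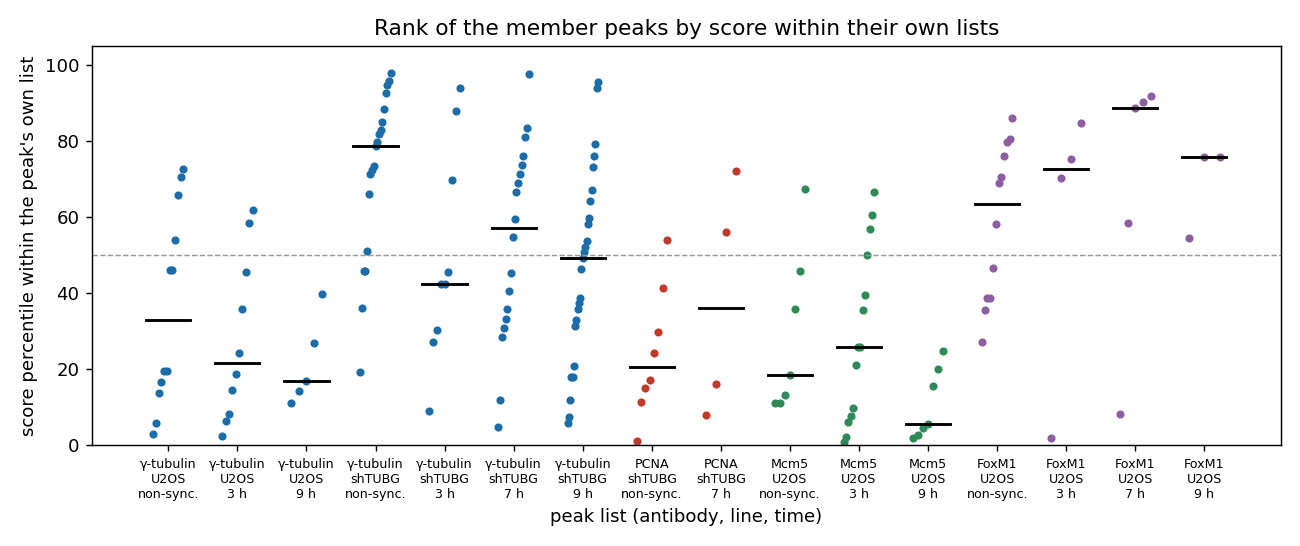
Score percentile of each member peak within its own list for the 16 lists with members, with a black bar at the median and a dashed line at the 50th percentile; points are peaks of 1 list and not replicates. γ-Tubulin members in U2OS have medians of 17.0 to 32.8 and in shTUBG U2OS of 42.4 to 78.7, whereas PCNA and Mcm5 members lie mostly below the dashed line and FoxM1 members mostly above it.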

How the data were processed

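Chromatin of 48 immunoprecipitates and 16 inputs was digested with micrococcal nuclease and sequenced by the authors. Per the labels, reads were aligned to hg19, and the processing notes name Bowtie2 2.1.0, SAMtools and MACS2. Duplicate removal, treatment of multiply mapping reads, use of the inputs and any blacklist are not given in the sources used here. The deposited peak lists carry a whole-number score, whose scale the authors did not state, and it was used only to rank peaks within a list. Read depth is unknown, and inputs have no list. Positions count from 1.

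The members, lists of results and comparisons were chosen with earlier results of these data known. Named regions were all merged member regions; those with PCNA are given list by list, and 4 regions tied at 6 lists, which would have passed the limit of 8 regions, by presence. Zones (4 kb), FoxM1 blocks (500 bp) and the scan of shifts, set from 30 to 60 kb, were chosen after the positions were seen. Each scan ended short of the length covered by its lists, so none reached 60 kb and the ranges differed. No test was run, since each condition has 1 list. Positions were compared in Python 3.11.15 with numpy 2.4.6, scipy 1.17.1 and matplotlib 3.10.9. Only the scan of shifts was tested on simulated data, and the overlap and joining of peaks were checked on a few made-up intervals. Gene names were taken from RefSeq without coordinates.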

Additional observations from a re-analysis of the deposited data

Results flagged for a closer look

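The difference in γ-tubulin member peaks between the lines did not go the same way at every time. Taken as shTUBG U2OS minus U2OS, it was 7 peaks in non-synchronous cells (19 against 12), -1 at 3 h (9 against 10), 18 at 7 h (18 against 0) and 20 at 9 h (25 against 5). Covered length followed the same signs, with 2497 against 3988 bp at 3 h. The difference between the times was not tested, since each time has 1 list per line.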

How the results depend on the processing

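Over 9 results and 51 alternatives, 0 changed direction, 44 stayed within the limits set for them and 7 moved. Only the counts and covered lengths of γ-tubulin by line could have changed direction. PCNA had 0 members in U2OS in every setting, so its shares could not move. Overlaps and counts of regions were labelled only as within their limits or moved. Of the γ-tubulin members, 72.4% (27 against 71) came from shTUBG U2OS. Joining peaks within 1000 bp made this 57.9% (16 against 22), with an interval of 40.8 to 73.7, and dropping peaks below their list's median score made it 87.0% (6 against 40). When peaks within 1000 bp were joined, the member regions numbered 9 instead of 23, those with γ-tubulin in both lines 3 instead of 10, and those with PCNA in shTUBG U2OS alone 3 instead of 5. Without peaks below the median, γ-tubulin was in both lines in 4 regions and PCNA in shTUBG U2OS alone in 3. The alternatives by their construction leave fewer and longer stretches or fewer peaks. For γ-tubulin counts and lengths, neither the scaffold alone nor leaving out each time changed the direction. Leaving out each time was run for 6 results, all but the counts of member regions. No replicate could be left out, because both samples of a group share 1 list. No paired analysis was possible because the lists carry no replicate numbers and the results come from no test. Unknown depth limits every count of 0, and the number of ribosomal DNA repeats in the cells was not measured here.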
